A study of Arabidopsis thaliana with 24 samples.

Results

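Expanding leaves of Arabidopsis thaliana accession Col-0 were compared with emerging leaves of the same accession, both from plants grown under water deficit. The comparison rests on 6 of the 24 libraries of the series, 3 for each leaf age. Genes of the chloroplast and mitochondrial genomes were set aside, each library was rescaled to a total of 1000000 over the remaining 37051 genes of the nuclear chromosomes, and the 18239 genes with a rescaled mean of at least 1 in either group were compared. Of these, 16306 reached a mean of 1 at both ages, 1163 in emerging leaves alone and 770 in expanding leaves alone. A gene that passed through 1 leaf age alone could only stand higher at that age, and the counts below include such genes.

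The series sequenced messenger RNA of whole leaves from Col-0, the common laboratory reference, and from gtl1-4, a knockout of the trihelix transcription factor gene GTL1, in well-watered plants and plants under deficit. Its title concerns the repression of GTL1 by water deficit. Both groups compared here are wild type and were kept at 30% of the water content of the medium, against 65 to 100% in the well-watered groups. Emerging leaves were sampled 1 day after emergence, described as proliferating tissue, and expanding leaves 14 to 15 days after emergence, described as differentiated tissue at 50% of full expansion. All plants grew in an 8 h photoperiod at 150 μmol m-2 s-1 of light and 23/18 °C, and each library pools 10 plants, so p-values measure the spread between pools and not between plants.

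A young dicot leaf first grows mainly by cell division, under the control of factors such as the growth-regulating factors (GRFs) and their GIF coactivators, and later by cell expansion, with endoreduplication in many cells. Over that transition the leaf builds its photosynthetic apparatus and turns from importing sugar to exporting it. Abscisic acid, made when water is short, induces genes for late embryogenesis abundant (LEA) proteins, galactinol and other protectants.

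The 2 leaf ages were deposited in separate tables that were normalized separately, so leaf age and table cannot be told apart. Rescaling removes any factor that is constant within a library. Emerging libraries held 27.7 to 43.5 M estimated counts and expanding libraries 16.1 to 23.7 M, as recovered from the steps between the deposited values. Chloroplast genes took 23.9 to 24.1% of the counts in emerging and 66.8 to 78.6% in expanding leaves, which left 20.8 to 32.8 M and 4.74 to 7.21 M counts of nuclear genes. Expanding replicate 2 had the highest chloroplast share. Between replicates the correlation of log2 values across genes was 0.965 to 0.983, and between leaf ages it was 0.761 to 0.819. A value below is a gene's share of 1 library after that rescaling to a total of 1000000 over the nuclear genes, and a log2 difference is expanding minus emerging on log2(value + 1), tested with limma and adjusted over all 18239 genes. In such bulk samples fewer cells of a type and less RNA per cell cannot be told apart.

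Leaf age separated the transcriptomes broadly, with 11612 genes called, 63.7% of those tested. Of these, 3285 were higher in expanding leaves (18% of the genes tested) and 8327 were lower (45.7%). A change of at least 2-fold was called in 1949 genes upwards (10.7%) and 4412 downwards (24.2%), and one of at least 16-fold in 87 and 145. The values of the 2 groups did not overlap for 12520 genes, 68.6% of those tested. The median gene was at -0.43, which is where a gene lies that keeps pace with most others. The most abundant genes took more of the total in expanding leaves, where the top 100 held 35.2 to 37.6% against 20.4 to 22.5% in emerging leaves.

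How the libraries are scaled therefore sets the balance of rises and falls. With median-of-ratios scaling the median gene was at -0.03, with 5047 genes higher (27.7%) and 5084 lower (27.9%), so the higher share of the calls went from 28.3 to 49.8%. With trimmed means (TMM) the median was -0.06 and with quantile normalization -0.05. Over those 3 scalings and the one used here, 3255 genes were called higher and 4903 lower each time. Counting the organelle genes in the totals moved the median to -1.58. That last scale measures a gene against the chloroplast RNA too, and many modest rises below turn into falls on it. A fall close to the median gene is a fall in share of the nuclear total, and several lists had fewer lower calls with median-of-ratios scaling, among them the polarity and boundary genes with 12 in place of 15, chlorophyll synthesis with 3 in place of 5 and auxin with 6 in place of 7.

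**Figure D1:**
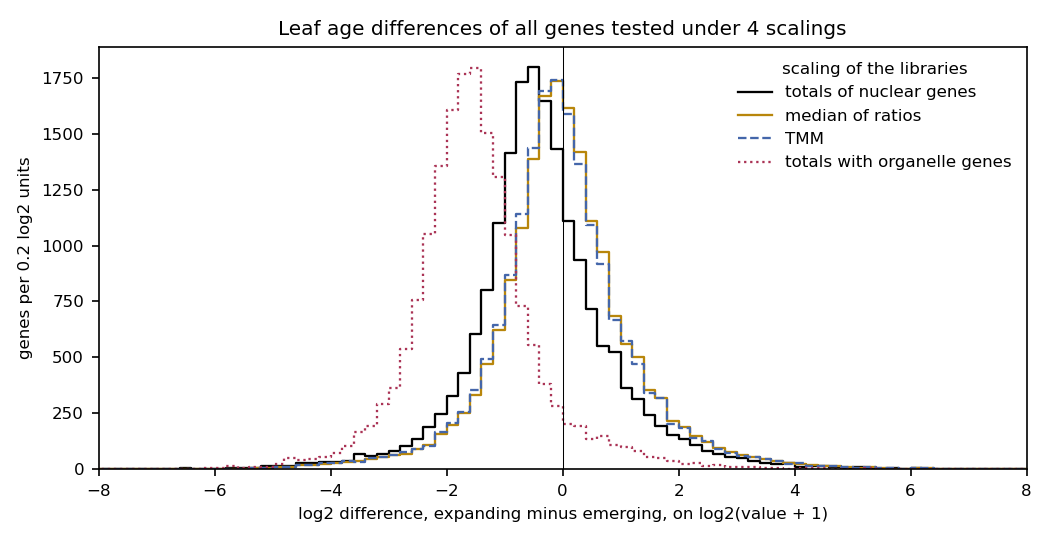
Number of genes (y axis) at each log2 difference, expanding minus emerging (x axis, bins of 0.2), under 4 ways of scaling the 6 libraries. The curve for totals of nuclear genes has its median at -0.43, those for TMM and median of ratios lie close to 0, and that for totals with organelle genes has its median at -1.58.

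The 8 genes with the largest rises had emerging means of at most 2.405, except AT2G25510 at 9.13. AT2G32870, a TRAF-like family gene, was at 0.275, 0 and 0.289 in emerging and 204, 244 and 221 in expanding leaves (log2 difference 7.56, SE 0.18, adjusted p 6.41e-10). ACD6, an ankyrin repeat gene of defence, was at 2.84, 1.56 and 1.59 in emerging and 358, 349 and 306 in expanding leaves (log2 difference 6.84, SE 0.18, adjusted p 8.56e-10). The others of the 8 largest rises were CYP79F1 (7.44), AK3 for an aspartate kinase (7.07), BCAT4 (7.06), MAM1 (6.69), AT2G25510 (6.31) and NUDT24 (6.15). CYP79F1, BCAT4 and MAM1 act in aliphatic glucosinolate synthesis and are described with that pathway.

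Genes of the epidermis and the wall were among the largest falls. AT2G33850, for an E6-like protein, was at 429, 416 and 339.6 in emerging and 0.422, 0 and 0.694 in expanding leaves (log2 difference -8.20, SE 0.21, adjusted p 6.62e-10). DCR, an acyltransferase gene of cutin formation, was at 425, 434 and 402 in emerging and 0.633, 0.792 and 0.832 in expanding leaves (log2 difference -7.91, SE 0.15, adjusted p 5.18e-11), so all emerging libraries were above 400 and all expanding ones below 1. PDF1, protodermal factor 1, stood at -7.21, GER3, a germin gene, at -6.42, XTH9, for a xyloglucan endotransglucosylase of the wall, at -6.36 and AT1G10640, for a pectin lyase-like protein, at -5.99. AT5G33370, a GDSL lipase gene, was at 91.2, 94.2 and 93.0 in emerging leaves and was listed at 0 in all 3 libraries of expanding leaves. The uncharacterized AT5G57123 was at 77.1, 115 and 67.0 in emerging leaves and was listed at 0 in all 3 libraries of expanding leaves. Against a floor of 3 counts over the 3 expanding libraries, a value of 0.177, these last genes were at least 526-fold and at least 489.6-fold lower in expanding leaves. For genes listed at 0 in a group the fitted difference depends on the pseudocount, and in this comparison they are given by their values.

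**Figure D2:**
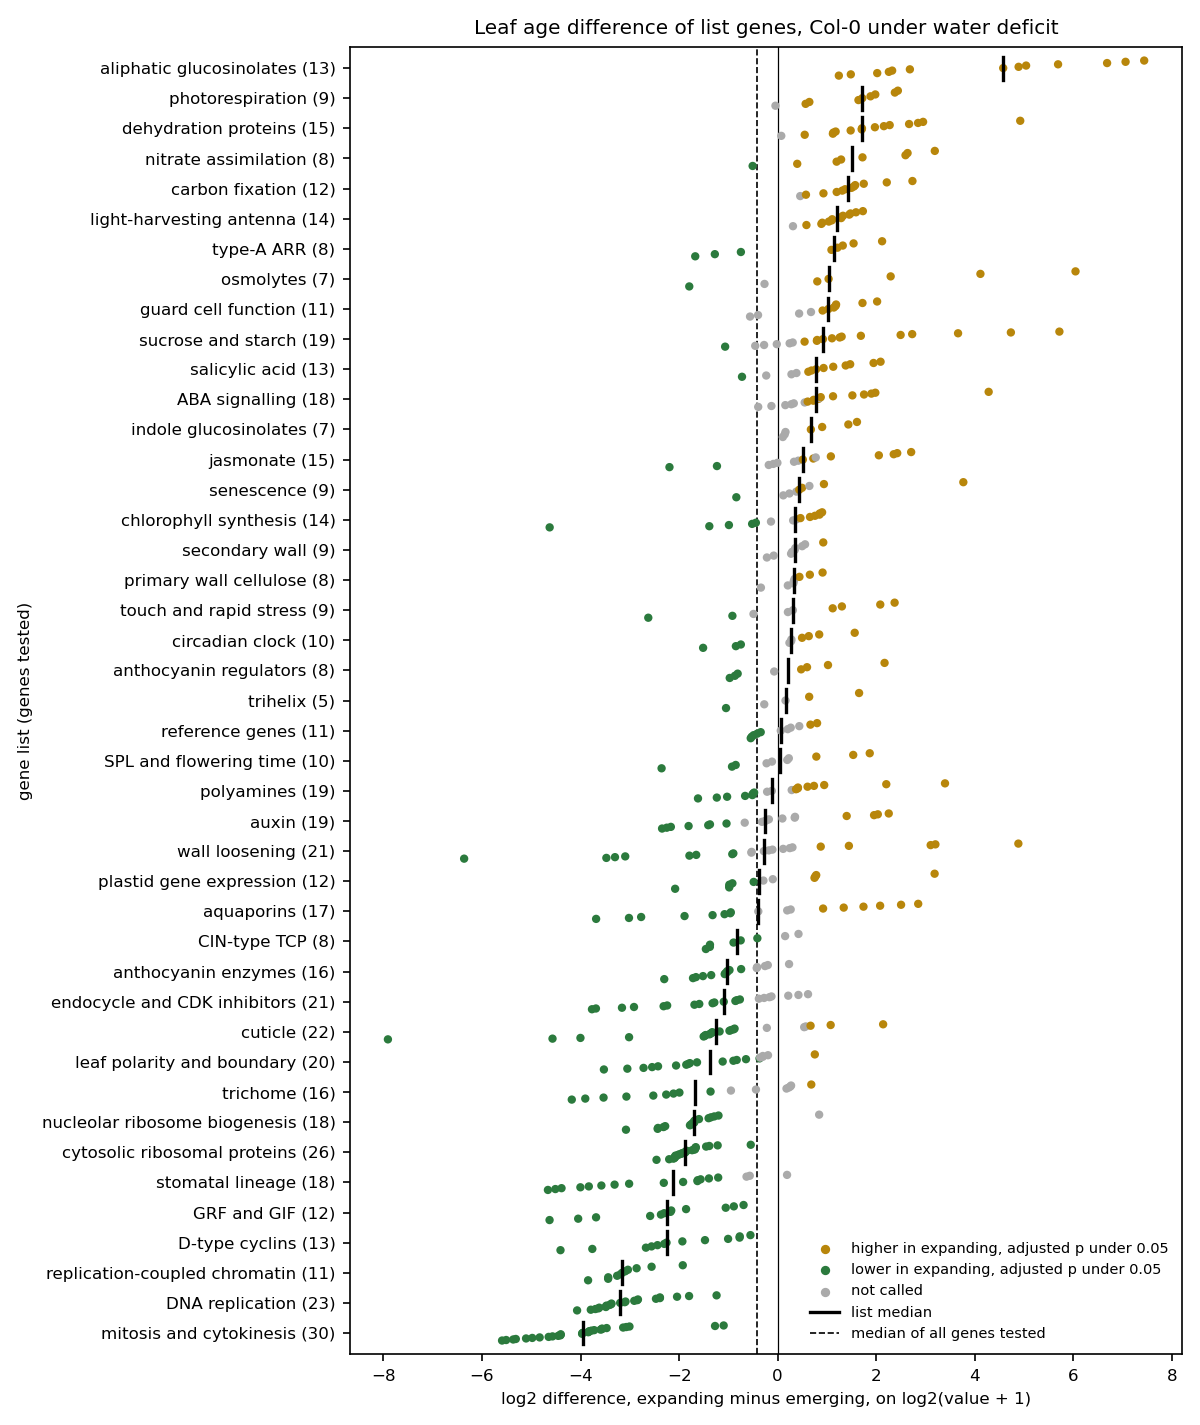
Log2 difference, expanding minus emerging (x axis), of every tested gene of 43 gene lists (y axis, number tested in brackets), coloured by call. Black bars are list medians, from 4.58 for aliphatic glucosinolates to -3.96 for mitosis and cytokinesis, and the dashed line is the median of all genes at -0.43.

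Genes of DNA synthesis were lower in expanding leaves without exception among those listed. All 23 DNA replication genes fell, by 2-fold or more in each case, with a median log2 difference of -3.20 against -0.43 for all genes tested. MCM7, a subunit of the replicative helicase, was at 153, 168 and 197 in emerging and 11.6, 6.54 and 10.4 in expanding leaves (log2 difference -4.07, SE 0.20, adjusted p 2.89e-08). CDT1B, a licensing factor, was at 37.8, 33.7 and 32.9 in emerging and 2.11, 1.19 and 1.53 in expanding leaves (log2 difference -3.79, SE 0.21, adjusted p 8.34e-08), and the helicase subunits MCM4 and MCM6 were at -3.70 and -3.64. The groups do not overlap for any of these 4 genes, nor for 68.6% of all genes tested. The 11 listed genes of replication-coupled chromatin fell as well (median -3.15), among them VIM1 (-3.85) and DDM1 (-3.26), which maintain DNA methylation, and the histone genes AT5G10400 and AT3G27360 (both -3.44). Histone genes have near-identical copies, and the division of reads between them is uncertain.

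Promoters of replication genes are known in plants to carry sites for E2F factors, which switch on S phase. The letters TTTCCCGC or TTTGGCGC were searched on both strands in the 250 bases before the annotated gene start (RefSeq, TAIR10.1). They stood in 10 of 23 replication promoters, 43.5%, against 0.958% of 27443 protein-coding promoters and 1.06% of the 17578 that belong to tested genes. No match overlapped another of the motifs searched. Those of MCM4 (chr2:7130730-7130979, minus strand) and MCM6 (chr5:18010668-18010917, minus strand) are shown 5′ to 3′, as the replication genes with a match and the largest falls, with the match in capitals. A match is a run of letters and not a shown binding site.
MCM4: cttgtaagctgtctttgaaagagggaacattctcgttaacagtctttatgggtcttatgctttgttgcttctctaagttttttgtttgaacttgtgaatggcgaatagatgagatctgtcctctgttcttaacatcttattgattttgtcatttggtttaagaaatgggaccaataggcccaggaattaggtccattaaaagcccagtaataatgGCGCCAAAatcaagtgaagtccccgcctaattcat
MCM6: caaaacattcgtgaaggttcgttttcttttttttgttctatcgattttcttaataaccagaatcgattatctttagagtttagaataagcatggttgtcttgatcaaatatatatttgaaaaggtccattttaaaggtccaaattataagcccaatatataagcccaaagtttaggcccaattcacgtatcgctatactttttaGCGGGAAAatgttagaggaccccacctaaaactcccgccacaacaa

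Mitotic genes fell further. All 30 listed genes of mitosis and cytokinesis were lower by 2-fold or more (median -3.96). KNOLLE, the syntaxin of the forming cell plate, was at 101, 92.7 and 86.3 in emerging and 0.843, 0.198 and 2.36 in expanding leaves (log2 difference -5.59, SE 0.31, adjusted p 7.51e-08). HIK, a kinesin of cytokinesis, was at 128, 118 and 136 in emerging and 1.90, 2.18 and 2.22 in expanding leaves (log2 difference -5.37, SE 0.16, adjusted p 1.56e-09), CDC20.1, an activator of the anaphase-promoting complex, at -5.31 and the B-type cyclin CYCB1;2 at -5.51. The core AACGG of the mitosis-specific activator element stood in 17 of the 30 promoters (56.7%), against 20.6% of all promoters and 22.3% of those of tested genes. In 1 of the 17 a match overlapped another motif. The 7 markers of proliferating cells chosen to check the leaf label, CYCB1;1, CYCB1;2, CDKB2;1, CDKB2;2, KNOLLE, GRF5 and GIF1, summed to 322 to 333 in emerging and 4.36 to 9.99 in expanding leaves. All 7 are also members of the mitosis or GRF lists, so they are no separate evidence, and their part in the falls was not tested.

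Of 14 D-type cyclin and RBR-E2F genes, 13 passed the filter and all 13 were lower (median -2.26), or 10 with median-of-ratios scaling. CYCD7;1 was below the filter. CYCD3;1, a cytokinin-responsive G1 cyclin, was at 157, 162 and 142 in emerging and 10.1, 9.91 and 11.2 in expanding leaves (log2 difference -3.76, SE 0.14, adjusted p 4.59e-09). CYCD3;2 and CYCD3;3 stood at -2.56 and -2.67, CYCD4;1 and CYCD4;2 at -2.30 and -2.25, and CYCD6;1 at -4.41. RBR1, the retinoblastoma homologue that restrains E2F, was at -1.93, E2FA at -2.44, E2FC at -1.47 and CYCD5;1 at -1.005. CYCD1;1 (-0.77), CYCD2;1 (-0.55) and E2FB (-0.77) lost their calls with median-of-ratios scaling, and CYCD2;1 also lost it without any of 5 of the 6 libraries in turn, with an adjusted p of up to 0.111.

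Endocycle genes moved less. Of 21 tested genes of the endocycle and of CDK inhibition 14 were lower and 0 higher (median -1.09), and under median-of-ratios scaling 11 were lower and 1 higher. CCS52B, an activator of the anaphase-promoting complex that peaks in mitosis, was at 37.0, 45.5 and 48.8 in emerging and 4.43, 0.991 and 2.22 in expanding leaves (log2 difference -3.77, SE 0.31, adjusted p 1.24e-06). DEL1, a repressor of endocycle entry, was at 20.6, 26.7 and 23.0 in emerging and 2.95, 2.18 and 1.67 in expanding leaves (log2 difference -2.92, SE 0.23, adjusted p 7.84e-07), and WEE1, a kinase of the replication checkpoint, was at -3.16. KRP3, a CDK inhibitor gene, was at 8.39, 17.2 and 16.3 in emerging and 0.211, 0 and 0.139 in expanding leaves, the last close to the floor.

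Regulators of leaf growth followed the cell cycle genes. All 12 GRF and GIF genes were lower (median -2.24, or -2.33 with the 2 genes listed at 0 put at their floor), and 11 with median-of-ratios scaling. Members such as GRF5, GRF6, GRF9 and GIF1 passed the filter through emerging leaves alone. Their direction was thus set by the filter, and they count in the 12 and in the median. GRF5 was at 23.7, 25.02 and 22.6 in emerging leaves and was listed at 0 in all 3 libraries of expanding leaves. GRF9 was at 19.99, 25.3 and 25.9 in emerging and 0, 0.792 and 0.832 in expanding leaves (log2 difference -4.05, SE 0.28, adjusted p 3.35e-07), and GIF1, the coactivator also known as AN3, was at 13.4, 18.8 and 18.5 in emerging and 0.843, 0 and 0.416 in expanding leaves (log2 difference -3.69, SE 0.28, adjusted p 7.14e-07). GRF7 (-2.59), GRF4 (-2.37), GRF8 (-2.30), GRF2 (-2.17), GRF3 (-2.16) and GRF1 (-1.86) fell by lesser amounts, and GIF2 (-0.89) and GIF3 (-0.69) by the least. GRF6 was at 1.31, 2.24 and 0.193 in emerging leaves and was listed at 0 in all 3 libraries of expanding leaves, and its call was lost without emerging replicate 1 or expanding replicate 1 or 3 (adjusted p up to 0.0731). GIF3 was not called with median-of-ratios scaling.

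The CIN-type TCP factors, which in Arabidopsis promote the exit from division, did not move together. Of 8 genes 6 were lower (median -0.82). TCP4 was at 50.3, 47.7 and 53.5 in emerging and 19.4, 16.4 and 17.5 in expanding leaves (log2 difference -1.46, SE 0.14, adjusted p 5.09e-06) and TCP3 at -1.37, TCP17 at -1.38, TCP5 at -0.89, TCP24 at -0.75 and TCP10 at -0.41. TCP2, the most abundant, was at 168, 152 and 157 in emerging and 186, 190.2 and 157 in expanding leaves with adjusted p 0.298, and TCP13 was at 0.42 with adjusted p 0.121. TCP2 and TCP13 were called higher with median-of-ratios scaling, where TCP5 was not called and TCP10 stood at 0.0067 and was not called either. The call of TCP10 was also lost without expanding replicate 1 or 3 or any emerging replicate. Of 20 tested polarity and boundary genes 15 were lower and 1 higher (median -1.38, or -1.73 with the 3 genes listed at 0 at their floor). ANT, a growth regulator of the AP2 family, was at 128, 126 and 132 in emerging and 11.6, 7.53 and 12.2 in expanding leaves (log2 difference -3.53, SE 0.18, adjusted p 3.72e-08), WOX1, a gene of blade outgrowth, at -2.72 and AS2, which acts in leaf polarity, at -2.55. JAG was at 8.27, 8.24 and 5.63 in emerging leaves and was listed at 0 in all 3 libraries of expanding leaves.

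**Figure D3:**
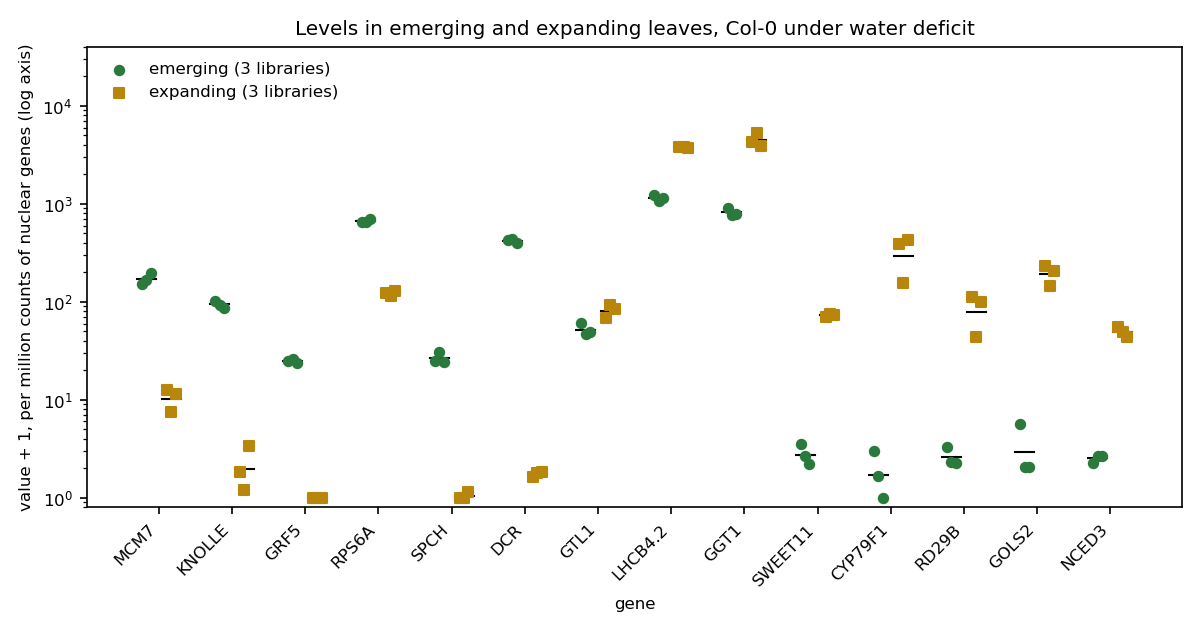
Value + 1, with each library scaled to a total of 1000000 over nuclear genes (log y axis), for 14 genes (x axis) in each of the 3 emerging libraries (circles) and 3 expanding libraries (squares), with black bars for geometric means. The genes from MCM7 to DCR lie lower in all expanding libraries, and those from GTL1 to NCED3 lie higher, GTL1 by the least.

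Genes for making ribosomes were lower in expanding leaves. All 26 genes listed for cytosolic ribosomal proteins fell (median -1.88, 25 with median-of-ratios scaling). They ranged from -2.46 to -1.22 apart from RPL3B at -0.55, which was the member not called with median-of-ratios scaling. RPS6A, a subunit protein phosphorylated under TOR signalling, was at 658, 652 and 692 in emerging and 121, 115 and 127 in expanding leaves (log2 difference -2.46, SE 0.12, adjusted p 2.59e-08). RPL23AA was at 519, 493 and 503 in emerging and 112, 126 and 114 in expanding leaves (log2 difference -2.10, SE 0.12, adjusted p 7.60e-08), RPL23AB at -2.12 and AT4G36130 at -2.201, and the division of reads between near-identical copies is uncertain. Of 18 nucleolar genes 17 were lower (median -1.69). NOP56, of the particles that methylate ribosomal RNA, was at 216, 210.2 and 272 in emerging and 48.7, 32.5 and 46.6 in expanding leaves (log2 difference -2.44, SE 0.17, adjusted p 3.42e-07), the fibrillarin gene FIB2 was at -3.08, and AT3G05060 and AT5G27120 were at -2.43 and -2.32.

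The motifs known from ribosomal protein promoters in this species were more frequent in these lists than among all promoters. Site II, TGGGCC on either strand, stood in 14 of 26 ribosomal protein promoters (53.8%) and in 9 of 18 nucleolar ones (50%). It stood in 13.7% of all promoters and 17.9% of those of tested genes. The telo-box AAACCCTA stood in 4 of 26 (15.4%) and 4 of 18 (22.2%), against 4.49% of all and 3.67% of those of tested genes. No match overlapped another motif. The promoters of RPS6A (chr4:15347805-15348054, minus strand) and AT3G53740 (chr3:19915067-19915316, minus strand) are shown as those of the ribosomal protein genes with a match and the largest falls (-2.46 and -2.08), with site II in capitals.
RPS6A: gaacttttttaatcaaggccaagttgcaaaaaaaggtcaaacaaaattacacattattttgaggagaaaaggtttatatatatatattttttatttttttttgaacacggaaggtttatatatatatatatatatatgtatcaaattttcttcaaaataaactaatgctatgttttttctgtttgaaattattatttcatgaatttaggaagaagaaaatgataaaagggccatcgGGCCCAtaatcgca
AT3G53740: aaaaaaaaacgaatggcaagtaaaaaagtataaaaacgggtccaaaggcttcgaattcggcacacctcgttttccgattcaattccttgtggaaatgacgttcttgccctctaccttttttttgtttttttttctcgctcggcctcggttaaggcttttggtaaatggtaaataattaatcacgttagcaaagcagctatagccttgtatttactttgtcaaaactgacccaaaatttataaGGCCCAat

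Nuclear genes of photosynthesis were higher in expanding leaves as a share of nuclear RNA. Of 14 light-harvesting antenna genes 13 were higher (median 1.20), 14 with median-of-ratios scaling and 6 with quantile normalization, and 0 were higher with organelle genes in the totals, where the median was -0.25. LHCB4.2, a minor antenna protein of photosystem II, was at 1242, 1067 and 1142 in emerging and 3834, 3851 and 3753 in expanding leaves (log2 difference 1.73, SE 0.16, adjusted p 2.24e-06). LHCA3, of photosystem I, was at 2821, 2691 and 2692 in emerging and 8052, 8532 and 8143 in expanding leaves (log2 difference 1.59, SE 0.19, adjusted p 1.78e-05), and LHCB2.1 and LHCB5 were at 1.48 and 1.46. The groups do not overlap for any of these, nor for 68.6% of all genes tested. The 5 markers of photosynthetic mesophyll, RBCS1A, LHCB1.3, LHCB2.1, RCA and CA1, summed to 24220 to 25320 in emerging and 45120 to 46860 in expanding leaves, and were thus abundant at both ages. All 5 are also members of the antenna or carbon fixation lists, so they are no separate evidence. RBCS1A itself was at 0.46 with adjusted p 0.120.

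Antenna promoters often carry I-box and G-box letters. GATAAG stood in 4 of 14 antenna promoters (28.6%) and CACGTG in 3 (21.4%), and in carbon fixation in 4 and 3 of 12 (33.3 and 25%). Among all promoters the shares were 12.3 and 6.49%, and among those of tested genes 12.4 and 7.62%. In each of the 3 genes of either list with a G-box, a match overlapped the abscisic acid element searched below. The promoters of LHCB4.2 (chr3:2717307-2717556, plus strand) and LHCB2.1 (chr2:1824481-1824730, minus strand) are those with a match and the largest rises, with the I-box in capitals.
LHCB4.2: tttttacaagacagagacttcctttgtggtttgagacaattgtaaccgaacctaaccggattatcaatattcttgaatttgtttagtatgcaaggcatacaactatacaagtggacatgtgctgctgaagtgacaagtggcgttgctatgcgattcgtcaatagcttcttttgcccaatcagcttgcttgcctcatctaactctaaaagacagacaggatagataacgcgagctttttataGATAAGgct
LHCB2.1: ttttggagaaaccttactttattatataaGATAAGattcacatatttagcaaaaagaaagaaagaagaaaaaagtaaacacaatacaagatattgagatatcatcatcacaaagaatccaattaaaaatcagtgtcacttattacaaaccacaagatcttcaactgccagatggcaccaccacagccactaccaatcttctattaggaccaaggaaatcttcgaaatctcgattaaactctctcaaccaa

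Of 12 carbon fixation genes 11 were higher (median 1.43, and -0.02 with organelle genes in the totals, where 2 were higher). CP12-2, a regulator that binds Calvin cycle enzymes in the dark, was at 38.6, 34.6 and 33.8 in emerging and 196, 308 and 238 in expanding leaves (log2 difference 2.74, SE 0.16, adjusted p 1.12e-07). CA1, a carbonic anhydrase, was at 621, 554 and 506 in emerging and 2906, 2062 and 2926 in expanding leaves (log2 difference 2.22, SE 0.17, adjusted p 8.17e-07), Rubisco activase RCA at 1.75 and phosphoribulokinase PRK at 1.57. In photorespiration, which salvages the product of Rubisco's reaction with oxygen, 8 of 9 genes were higher (median 1.72). GGT1, a peroxisomal aminotransferase, was at 901, 769.8 and 795 in emerging and 4298, 5247 and 3924 in expanding leaves (log2 difference 2.44, SE 0.17, adjusted p 3.37e-07), AGT1 was at 2.38, GLDP1 of the glycine decarboxylase complex at 1.98 and HPR1 at 1.89. With organelle genes in the totals the photorespiration median was 0.27 with 2 higher.

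Of 14 chlorophyll genes 6 were higher (42.9%) and 5 lower (35.7%), against 18% and 45.7% of all genes, with a median of 0.35. None of the 6 was higher with organelle genes in the totals. PORA, the protochlorophyllide reductase of seedlings, was at 76.4, 66.4 and 51.6 in emerging and 2.11, 0.991 and 1.94 in expanding leaves (log2 difference -4.63, SE 0.23, adjusted p 4.06e-08), while GLK2, an activator of chloroplast development, was at 52.7, 44.8 and 53.2 in emerging and 82.2, 106 and 97.2 in expanding leaves (log2 difference 0.90, SE 0.14, adjusted p 0.000168, but -0.52 with organelle genes in the totals). PCB2 stood at -1.39 and CHLI1 at -0.99. Of 12 genes of plastid gene expression 4 were higher and 6 lower (33.3% and 50%, against 18% and 45.7% of all genes, with a median of -0.39). SIG5, a sigma factor of the plastid RNA polymerase that responds to blue light and stress, was at 25.2, 23.0 and 16.1 in emerging and 231, 190.4 and 182 in expanding leaves (log2 difference 3.19, SE 0.17, adjusted p 6.77e-08), the opposite of HMR (-2.08), of the same polymerase's complex, the phage-type polymerase gene SCA3 (-0.98) and GUN1 (-0.98).

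Genes of sucrose export and nitrogen assimilation were among the rises. Of 19 sucrose and starch genes 13 were higher and 1 lower (median 0.92, and -0.48 with organelle genes in the totals, where 5 were higher). ATSPS4F, a sucrose phosphate synthase, was at 1.59, 0.456 and 0.866 in emerging and 100.4, 107 and 93.1 in expanding leaves (log2 difference 5.72, SE 0.23, adjusted p 7.90e-09). SWEET11, a sucrose efflux carrier of phloem parenchyma, was at 2.53, 1.63 and 1.20 in emerging and 69.2, 74.9 and 71.7 in expanding leaves (log2 difference 4.74, SE 0.21, adjusted p 1.61e-08), SWEET12 was at 3.66, and SUC2, the phloem loader, was at 43.7, 33.3 and 38.7 in emerging and 288, 222 and 276 in expanding leaves (log2 difference 2.73, SE 0.15, adjusted p 6.47e-08). The 8 vascular markers, which include SUC2, summed to 123 to 167 in emerging and 314 to 426 in expanding leaves, but they split. The phloem genes SEOR1 and APL were at 1.54 and 2.09, the cambial gene PXY was at -1.17, and ATHB8, WOX4, XCP1 and XCP2 were between -0.23 and 0.30 and not called. Whether the share of phloem cells accounts for the rises was not tested.

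Of 8 nitrate assimilation genes 7 were higher and 1 lower (median 1.51, and 0.09 with organelle genes in the totals, where 3 were higher). NIA2, a nitrate reductase, was at 61.2, 66.8 and 90.5 in emerging and 482, 347 and 553 in expanding leaves (log2 difference 2.64, SE 0.19, adjusted p 4.15e-07). The transporter gene NRT1.1 was at 5.74, 1.86 and 5.05 in emerging and 40.9, 49.5 and 40.9 in expanding leaves (log2 difference 3.19, SE 0.29, adjusted p 2.45e-06), the asparagine synthetase gene ASN1 at 2.60 and the cytosolic glutamine synthetase gene GLN1;1 at 1.72.

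Of 21 tested wall-loosening genes 5 were higher (23.8%) and 8 lower (38.1%), shares near those of all genes (18% and 45.7%), with a median of -0.28, and with median-of-ratios scaling 8 were higher and 8 lower. EXPA11, an expansin, was at 0.549, 0.266 and 0.481 in emerging and 38.4, 39.8 and 45.8 in expanding leaves (log2 difference 4.89, SE 0.21, adjusted p 1.56e-08). EXPA15 was at 46.3, 44.3 and 45.8 in emerging and 5.06, 2.18 and 4.44 in expanding leaves (log2 difference -3.30, SE 0.24, adjusted p 4.59e-07), XTH9 was at 256, 241 and 306 in emerging and 1.05, 3.76 and 2.50 in expanding leaves and XTH16 was at -3.48. Of 8 genes of primary wall cellulose 3 were higher, namely CESA2 (0.91), COB (0.65) and CESA3 (0.44, not called without expanding replicate 1 or 3 or emerging replicate 2 or 3), and 7 with each of TMM, median-of-ratios and quantile scaling, but 0 with organelle genes in the totals. Of 9 tested secondary wall genes only the laccase gene LAC4 was called (0.93, adjusted p 0.0352), its groups overlap, and the call was lost without emerging replicate 2 or 3 or expanding replicate 1 or 3 (adjusted p up to 0.155).

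Of 17 tested aquaporin genes 6 were higher (35.3%) and 8 lower (47.1%), against 18% and 45.7% of all genes, and the median of -0.39 was close to that of all genes (-0.43). PIP2;7 was at 537, 658 and 751 in emerging and 77.2, 62.6 and 100 in expanding leaves (log2 difference -3.02, SE 0.18, adjusted p 1.12e-07), PIP2;8 stood at -3.68 and PIP2;5 at -2.77, all plasma membrane channels. TIP2;2, a vacuolar channel, was at 10.0, 11.3 and 7.17 in emerging and 79.9, 50.5 and 99.8 in expanding leaves (log2 difference 2.85, SE 0.24, adjusted p 1.50e-06).

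In the epidermis, genes of the stomatal lineage fell and genes of mature guard cells rose. Of 18 lineage genes 15 were lower and 0 higher (median -2.11). SPCH, the factor that starts the lineage, was at 24.1, 29.4 and 23.2 in emerging and 0, 0 and 0.139 in expanding leaves. TMM, the receptor of its spacing signals, was at 89.8, 91.3 and 94.1 in emerging and 2.95, 2.77 and 4.86 in expanding leaves (log2 difference -4.39, SE 0.19, adjusted p 1.64e-08). POLAR, of asymmetric division, was at 20.23, 20.01 and 25.6 in emerging leaves and was listed at 0 in all 3 libraries of expanding leaves, and the signal peptide gene EPF2 was at 13.2, 20.7 and 15.2 in emerging and 0.211, 0 and 0 in expanding leaves. SPCH and EPF2 thus had at most 1 count in any expanding library. Of 11 guard cell genes 7 were higher and 0 lower (median 1.03, but -0.15 with 2 higher when organelle genes were in the totals). BLUS1, a kinase of blue-light opening, was at 3.45, 0.911 and 2.74 in emerging and 7.59, 22.4 and 9.57 in expanding leaves (log2 difference 2.02, SE 0.40, adjusted p 0.000963), the anion channel gene SLAC1 stood at 1.72, the potassium channel gene GORK at 1.19 and the kinase gene HT1 at 1.18. The 5 guard cell markers summed to 18.5 to 22.6 and 37.8 to 41.3, and FAMA alone among them was lower, at -0.57 with adjusted p 0.106. All 5 are also members of the guard cell or lineage lists, so they are no separate evidence.

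Cuticle genes were mostly lower, and trichome genes in a share nearer that of all genes. Of 16 tested trichome genes 9 were lower (56.25%) and 1 higher (6.25%), against 45.7% and 18% of all genes. Their median was -1.68, and all 9 were lower by 2-fold or more, as were 24.2% of all genes. GL1, the MYB factor that starts trichomes, was at 17.3, 15.4 and 18.7 in emerging leaves and was listed at 0 in all 3 libraries of expanding leaves. EGL3, its bHLH partner, was at 29.5, 32.2 and 25.1 in emerging and 0.843, 0.792 and 1.39 in expanding leaves (log2 difference -3.90, SE 0.23, adjusted p 9.77e-08), and MYB106 and GL2 were at -3.53 and -3.07. The 5 trichome markers GL2, GL1, MYB106, TTG2 and TRY summed to 135 to 149 in emerging and 19.6 to 35.5 in expanding leaves, with TRY at 0.26 and not called. All 5 are also members of the trichome list, so they are no separate evidence. Of 22 tested cuticle genes 16 were lower (72.7%) and 3 higher (13.6%), with a median of -1.25. LACS1, a long-chain acyl-CoA synthetase of wax and cutin, was at 280.1, 282 and 246 in emerging and 8.43, 11.9 and 11.1 in expanding leaves (log2 difference -4.57, SE 0.15, adjusted p 2.66e-09). DCR, given above, led the falls, with CYP86A4 (-4.002) and HTH (-3.02). Markers of other organs were low: those of the shoot apical meristem summed to 0.641 to 1.02 and 0.594 to 1.25, 2 of 6 at 0 in every library, and those of flowers to at most 0.278. Of 6 root markers 4 were at 0 in every library, and PYK10 gave nearly all of a sum of 8.32 to 12.6 in emerging and 0 to 0.422 in expanding leaves.

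GTL1 (AT1G33240), which in Arabidopsis represses the endocycle and the stomatal gene SDD1, was at 59.9, 46.2 and 47.9 in emerging and 67.3, 91.9 and 83.0 in expanding leaves (log2 difference 0.64, SE 0.16, adjusted p 0.00378). Expanding leaves thus held the higher share, without overlap (as for 68.6% of genes tested), but with organelle genes in the totals the difference was -0.78. Of the trihelix family GT2 was at 8.03, 5.24 and 8.66 in emerging and 22.1, 23.0 and 29.6 in expanding leaves (log2 difference 1.65, SE 0.22, adjusted p 4.82e-05) and AT1G76880 at -1.05, while GT-1 (0.16, adjusted p 0.454) and PTL (-0.27, adjusted p 0.522) were not called. EDA31 was below the filter.

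Anthocyanin enzyme genes stood lower in expanding leaves under deficit, and in well-watered Col-0 the list median was -1.58. In the test of leaf age by water below, 3 of the 16 were called, each more positive under deficit. Among them, GSTF12 and 5MAT lost the call without 1 of the libraries. Of 16 genes 11 were lower and 0 higher (median -1.02), and 9 lower and 1 higher with median-of-ratios scaling. F3'H, the flavonoid 3'-hydroxylase gene, was at 124, 131 and 108 in emerging and 39.9, 12.5 and 26.1 in expanding leaves (log2 difference -2.30, SE 0.30, adjusted p 4.81e-05). LDOX, anthocyanidin synthase, was at 413, 371 and 288 in emerging and 173, 63.2 and 126 in expanding leaves (log2 difference -1.66, SE 0.29, adjusted p 0.000382), and the acyltransferase genes AT1G03940 and 5MAT were at -1.72 and -1.51. Expanding replicate 2, with the highest chloroplast share, was the lowest in each of these. Of 8 regulators 4 were higher (50%) and 3 lower (37.5%), against 18% and 45.7% of all genes, with a median of 0.20. TT8 (-0.97) and LBD38 (-0.81) were lower, and MYB90, an activator, was at 1.13, 0.911 and 1.06 in emerging and 0.211, 0 and 0.139 in expanding leaves. HAT1, a repressor, was at 1.98, 0.721 and 1.01 in emerging and 6.75, 8.52 and 11.8 in expanding leaves (log2 difference 2.17, SE 0.29, adjusted p 5.63e-05), and MYB75 and LBD37 stood at 0.48 and 0.60. MYBL2, another repressor, was at 1.02, but at -0.39 with organelle genes in the totals. TT8 was not called without emerging replicate 1 or 3, nor with median-of-ratios scaling, where 0 regulators were lower.

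Polyamine genes moved in both directions, 8 higher and 8 lower of 19 (median -0.12), and 9 and 3 with median-of-ratios scaling. Each share is 42.1%, against 18% higher and 45.7% lower among all genes, so the lower share is near that of all genes. AT3G25570, for an S-adenosylmethionine decarboxylase, was at 1.80, 2.09 and 2.36 in emerging and 30.6, 39.4 and 25.7 in expanding leaves (log2 difference 3.40, SE 0.22, adjusted p 1.99e-07). AIH, of putrescine synthesis from agmatine, was at 5.55, 2.35 and 6.78 in emerging and 22.1, 28.7 and 23.4 in expanding leaves (log2 difference 2.21, SE 0.29, adjusted p 4.64e-05). In contrast ADC2, arginine decarboxylase, which makes agmatine, was at 318, 233 and 207 in emerging and 102, 63.4 and 80.0 in expanding leaves (log2 difference -1.62, SE 0.19, adjusted p 2.18e-05). The spermidine synthase gene SPDS1 was at -1.23, and ADC1 (-0.51), SPDS2 (-0.51), ACL5 (-0.49), PAO4 (-0.66) and PAO5 (-0.48) were lower by amounts close to the median gene and were not called with median-of-ratios scaling. ADC1 was not called without emerging replicate 3 or expanding replicate 3, nor ACL5 without emerging replicate 1. PAO1, a polyamine oxidase gene, was at -1.02. Modest rises of NLP1 (0.37), SAMDC (0.61), AT5G15950 (0.41), PAO2 (0.41) and the arginase genes ARGAH1 (0.74) and ARGAH2 (0.95) turned into falls with organelle genes in the totals. The calls of NLP1, AT5G15950 and PAO2 were each also lost without 1 of the libraries. SPMS (0.29), SAMDC4 (-0.21) and PAO3 (-0.12) were not called.

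Dehydration genes stood higher in expanding leaves under deficit, and also in well-watered Col-0, where the list median was 2.04. Of 15 dehydration protein genes 14 were higher and 0 lower (median 1.71, 0.27 with organelle genes in the totals, where 5 were higher). RD29B, a classic abscisic acid-responsive gene, was at 2.29, 1.33 and 1.25 in emerging and 111, 42.2 and 99.0 in expanding leaves (log2 difference 4.92, SE 0.32, adjusted p 2.17e-07). LEA14 was at 32.0, 23.4 and 16.98 in emerging and 212, 180.5 and 173 in expanding leaves (log2 difference 2.95, SE 0.20, adjusted p 2.47e-07), the dehydrin gene RAB18 was at 2.85 and LEA4-5 was at 2.67. Expanding replicate 2 gave the lowest expanding value of RD29B, RAB18 and LEA4-5, still above every emerging library.

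The abscisic acid response element, searched as ACGTGTC or ACGTGGC, stood in 5 of 15 promoters of the list (33.3%), against 6.39% of all and 7.64% of those of tested genes. In 1 of the 5 it overlapped a G-box. RD29B (chr5:21236771-21237020, plus strand) held 3 matches and LEA14 (chr1:172949-173198, minus strand) held 1. They are shown as the genes with a match and the largest rises, with the matches in capitals.
RD29B: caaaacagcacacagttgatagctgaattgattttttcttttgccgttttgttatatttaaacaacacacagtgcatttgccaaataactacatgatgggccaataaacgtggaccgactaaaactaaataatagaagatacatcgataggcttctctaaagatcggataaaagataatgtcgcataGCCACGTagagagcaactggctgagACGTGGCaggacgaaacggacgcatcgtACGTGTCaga
LEA14: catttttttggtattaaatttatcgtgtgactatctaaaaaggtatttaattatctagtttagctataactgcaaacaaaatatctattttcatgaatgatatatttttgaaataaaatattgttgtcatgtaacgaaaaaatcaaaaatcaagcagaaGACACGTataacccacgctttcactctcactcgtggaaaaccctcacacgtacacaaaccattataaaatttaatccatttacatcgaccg

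Of 18 tested abscisic acid genes 11 were higher and 0 lower (median 0.78, and -0.62 with 2 higher when organelle genes were in the totals). NCED3, the rate-limiting enzyme of abscisic acid synthesis under drought, was at 1.25, 1.67 and 1.68 in emerging and 54.6, 47.8 and 43.0 in expanding leaves (log2 difference 4.28, SE 0.20, adjusted p 2.38e-08). The transcription factor genes HB7 and RD26 were at 1.98 and 1.90, and HAI2, a PP2C phosphatase induced by the hormone, at 1.75. Of 7 osmolyte genes 5 were higher and 1 lower (median 1.03, and 0.22 with 3 higher when organelle genes were in the totals). GOLS2, for the galactinol synthase of drought, was at 4.70, 1.06 and 1.06 in emerging and 231, 144 and 207 in expanding leaves (log2 difference 6.05, SE 0.34, adjusted p 8.89e-08). GOLS3, its cold-induced relative, was at 0.397, 0 and 0.337 in emerging and 14.8, 29.1 and 19.6 in expanding leaves (log2 difference 4.12, SE 0.29, adjusted p 3.47e-07), and GOLS1 was at 2.29. P5CR, the last enzyme of proline synthesis, was lower (-1.79). In well-watered Col-0 the medians of the abscisic acid and osmolyte lists were 0.81 and 1.72, so both list medians were above 0 in either water regime. In the test of leaf age by water below, 0 genes of either list were called, which does not show equal differences.

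Aliphatic glucosinolate synthesis stood out among the rises. All 13 tested genes were higher, each by at least 2-fold (median 4.58, or 4.89 with the gene listed at 0 put at its floor), and all 13 with median-of-ratios scaling. Members such as CYP79F1, BCAT4 and CYP79F2 (emerging means 0.876, 0.507 and 0) passed the filter through expanding leaves alone. Their direction was thus set by the filter, and they count in the 13 and in the median. These sulphur-rich compounds defend leaves of the cabbage family against herbivores. MAM1, which elongates the methionine side chain, was at 5.13, 1.37 and 0.722 in emerging and 339.9, 209 and 382 in expanding leaves (log2 difference 6.69, SE 0.39, adjusted p 9.49e-08). BCAT4, which starts that elongation, was at 1.31, 0.114 and 0.0962 in emerging and 238, 113 and 246 in expanding leaves (log2 difference 7.06, SE 0.34, adjusted p 3.03e-08), and IMD1, of the same cycle, was at 5.69. CYP79F1, the P450 that makes the aldoxime, was at 1.98, 0.645 and 0 in emerging and 388, 156 and 422 in expanding leaves (log2 difference 7.44, SE 0.41, adjusted p 7.15e-08). Its near-identical neighbour CYP79F2 was listed at 0 in all emerging libraries, and the division of reads between the pair is uncertain. The median of the list with organelle genes in the totals was still 3.04. MAM3 was below the filter. In indole glucosinolates 4 of 7 tested genes were higher (median 0.68, and -0.70 with 1 higher when organelle genes were in the totals), with MYB51 at 1.61, CYP79B3 at 1.44, CYP79B2 at 0.90 and UGT74B1 at 0.68, the last pair below 0 with organelle genes in the totals.

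Of 13 tested salicylic acid genes 9 were higher and 1 lower (median 0.78, and -0.55 with 2 higher when organelle genes were in the totals). WRKY70 was at 10.3, 6.19 and 5.63 in emerging and 27.6, 40.4 and 34.0 in expanding leaves (log2 difference 2.09, SE 0.23, adjusted p 1.29e-05), SARD1, an activator of salicylic acid synthesis, at 1.95 and PBS3 at 1.38. The pathogenesis-related gene PR2 was at 0.0305, 0 and 0 in emerging and 2.53, 0.594 and 2.91 in expanding leaves, and PR1 was below the filter. Of 15 jasmonate genes 7 were higher (46.7%) and 2 lower (13.3%), against 18% and 45.7% of all genes. Their median was 0.51, and -0.87 with 4 higher when organelle genes were in the totals. Without 1 library the higher count ran from 5 to 11. The synthesis genes AOC2 and AOS were at 2.71 and 2.43, the repressor gene JAZ9 was at 2.36, and VSP1, a storage protein gene, was at -2.19. In the senescence list SAG12, SAG13, ORE1 and NYE2 were below the filter. Of the 9 tested genes 4 were higher (44.4%) and 1 lower (11.1%), against 18% and 45.7% of all genes. Their median was 0.44, and 7 were higher with median-of-ratios scaling. With organelle genes in the totals the median was -0.93 with 1 higher. SWEET15, a sucrose carrier also induced in senescing leaves, was at 0.0305, 0 and 0 in emerging and 29.7, 2.18 and 25.8 in expanding leaves, with expanding replicate 2 far below the other expanding libraries.

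Among type-A response regulators, the feedback genes of cytokinin signalling, 5 were higher and 3 lower of 8 tested (median 1.15, and -0.29 with 1 higher when organelle genes were in the totals). Those shares are 62.5% and 37.5%, against 18% and 45.7% of all genes. ARR5 was at 4.85, 5.998 and 2.98 in emerging and 22.8, 24.6 and 21.1 in expanding leaves (log2 difference 2.12, SE 0.23, adjusted p 1.17e-05), ARR6 stood at 1.54 and ARR9 at 1.32 (but -0.10 with organelle genes in the totals), while ARR15 was at 21.5, 18.9 and 14.8 in emerging and 2.74, 8.12 and 5.41 in expanding leaves (log2 difference -1.67, SE 0.30, adjusted p 0.000501). ARR8 (annotated as response regulator 3), which an annotated noncoding gene overlaps so that its reads are uncertain, had the highest mean of all nuclear genes in expanding leaves, 35350 ± 12140 against 15180 ± 4444 in emerging leaves (log2 difference 1.22, adjusted p 0.0121). It was not called with quantile normalization or without 1 of the libraries (adjusted p up to 0.109), and it stood at -0.24 with organelle genes in the totals. AT1G15405, a noncoding RNA, was the most abundant nuclear gene of emerging leaves.

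Of 19 tested auxin genes 4 were higher and 7 lower (21.1% and 36.8%, near the 18% and 45.7% of all genes, with a median of -0.25). The response factor gene MP stood at -2.17 and the synthesis gene YUC4 at -2.35. IAA2 was at 27.0, 9.98 and 11.2 in emerging and 77.2, 70.1 and 72.3 in expanding leaves (log2 difference 2.26, SE 0.29, adjusted p 3.45e-05). Of 10 tested genes of the SPL family and flowering time 3 were higher (30%) and 3 lower (30%). SOC1, a floral integrator, was at 19.6, 18.0 and 16.7 in emerging and 66.8, 78.7 and 61.9 in expanding leaves (log2 difference 1.87, SE 0.15, adjusted p 9.12e-07), SPL4 was at 1.53, and SPL15 and SPL10 were at -2.35 and -0.93. In the clock 4 of 10 were higher (40%) and 3 lower (30%), against the same 18% and 45.7% of all genes. The morning genes CCA1 and PRR9 were at 1.56 and 0.84 and the evening genes TOC1 and LUX at -0.85 and -1.51. With organelle genes in the totals 0 clock genes were higher, and PRR9 was at -0.58. The labels do not state a sampling hour, and its part was not tested. Of 9 tested touch and rapid stress genes 4 were higher (44.4%) and 2 lower (22.2%), among them CBF3 (2.38), TCH3 (2.08), CBF2 (1.305) and TCH4 (-2.62).

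Of 11 genes in common use as references, UBC9 (0.80) and UBQ10 (0.67) were higher and 5 were lower, including UBC21 (-0.55) and AT4G33380 (-0.52). These shares, 18.2% and 45.5%, are those of all genes (18% and 45.7%). Each of the 5 lower calls was lost without 1 of the libraries, and the count of lower genes then ran from 0 to 4. With median-of-ratios scaling 6 were higher and 0 lower, and with organelle genes in the totals all 11 were lower.

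The same leaf age comparison in well-watered Col-0 shares no library with the one under deficit, and the 12 libraries were fitted together to test where the ages differed more or less under deficit. Of 18652 genes 503 passed (2.7%), 145 with a more positive and 358 with a more negative difference under deficit, and 3438 had an unadjusted p under 0.05. Without 1 library the count ran from 181 to 649. It was lowest without well-watered emerging replicate 1 (181), 2 (196) or 3 (208), deficit emerging replicate 1 (244) or 2 (298), or deficit expanding replicate 1 (301). Cell division lists gave 0 calls here, with medians of -3.20 under deficit and -3.47 when well-watered for DNA replication and -3.96 and -4.13 for mitosis. With 2.7% of all genes called, 0 calls in lists of 23 and 30 genes is near that share. It does not show that the differences were equal. Of 610 tested list genes 39 were called, 9 positive and 30 negative.

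Among the 39 list genes the largest positive differences were those of RD29B, DFR and LEA4-5, and 28 of the 39 calls were lost without 1 of the libraries. RD29B averaged 1.62 ± 0.578 in emerging and 84.0 ± 36.6 in expanding leaves under deficit, and was listed at 0 in well-watered emerging leaves and at 1.55 ± 0.557 in well-watered expanding leaves (SD, n = 3 each). The fitted difference of log2 differences, 3.598 (SE 0.46, adjusted p 0.00101), depends on the pseudocount because of those zeros, and with voom weights it was 0.02 and not called. DFR, dihydroflavonol reductase, went with leaf age from 449.5 to 224 under deficit and from 149.6 to 9.06 when well-watered (2.97, SE 0.44, adjusted p 0.00270), and GSTF12 and 5MAT were at 2.201 and 1.54, calls lost without 1 of the libraries. LEA4-5 went from 2.43 to 21.9 under deficit and from 0.0838 to 0.105 when well-watered (2.64, adjusted p 0.00526, not called with voom weights). AIH went from 4.90 to 24.8 under deficit and from 9.63 to 15.5 when well-watered (1.56, adjusted p 0.0322, lost without 1 of the libraries).

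Wall-loosening genes made the largest group of negative differences, 7 of the 30. EXPA1 was at 149 and 164 in emerging and expanding leaves under deficit, and at 66.0 and 264 when well-watered (-1.87, SE 0.21, adjusted p 0.000359). XTH24 was at 1.79 and 1.58 under deficit and at 11.3 and 54.1 when well-watered (-2.44, adjusted p 0.0201, lost without 1 of the libraries). The others were EXPA8, EXPA15, XTH4, XTH6 and XTH7. The dehydration genes COR15A, COR15B and HIS1-3 were at -1.44, -1.79 and -2.02. COR15A went from 201 to 961 under deficit and from 39.1 to 527.5 when well-watered. The list named for dehydration thus held calls in both directions, 2 positive and 3 negative. CYP83B1 and CYP83A1, of glucosinolate synthesis, were at -1.58 and -1.69 (CYP83A1 lost without 1 of the libraries), and the aquaporin genes PIP1;5 and PIP2;1 at -1.81 and -0.98.

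**Figure D4:**
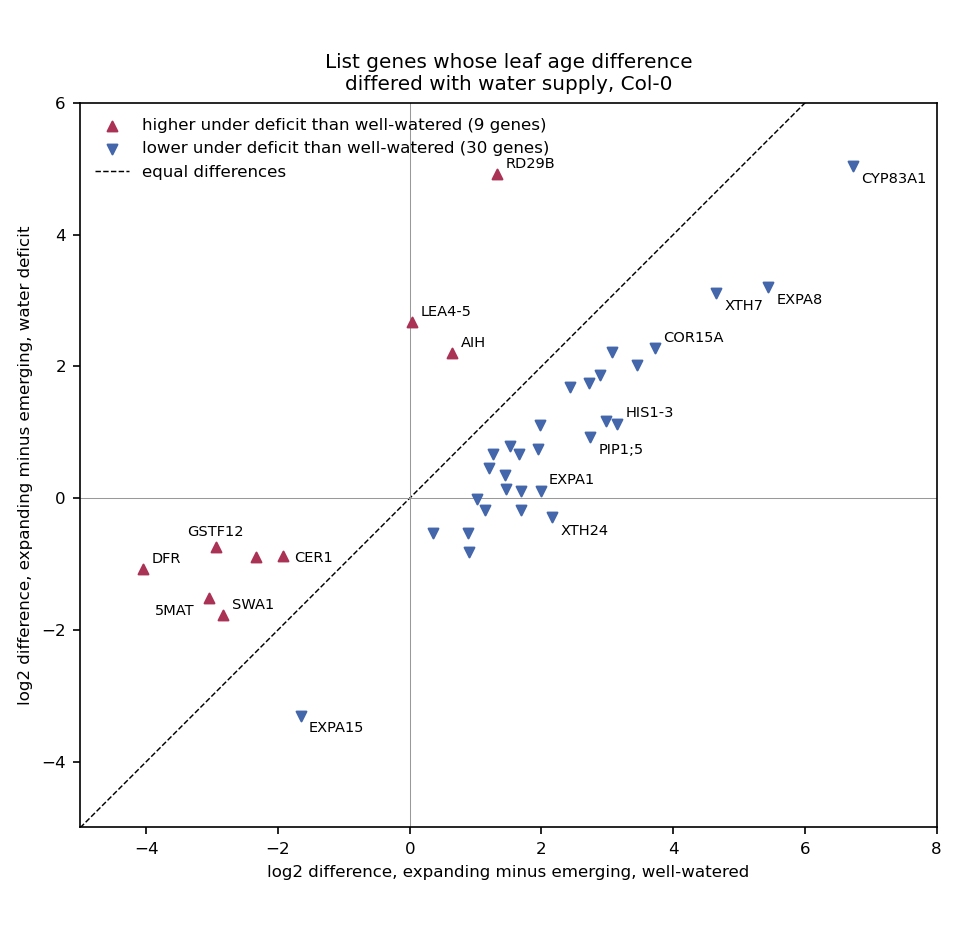
Log2 difference between expanding and emerging leaves under water deficit (y axis) against that in well-watered plants (x axis) for the 39 list genes called in the interaction, 9 more positive under deficit (upward triangles) and 30 more negative (downward triangles). The dashed line marks equal differences, and RD29B lies farthest above it at 1.33 and 4.92.

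For genotype the leaf age differences under deficit were compared between Col-0 and gtl1-4, which uses the same Col-0 libraries again. Of 18509 genes 9 passed (0.0486%), 3 positive and 6 negative for Col-0 minus gtl1-4, with 1191 at an unadjusted p under 0.05, and 0 passed with voom weights. AGL38, a MADS-box gene, went from 11.9 ± 2.47 in emerging to 0.701 ± 0.879 in expanding leaves of Col-0 and from 12.1 ± 2.72 to 19.7 ± 0.121 in gtl1-4 (-3.70, SE 0.41, adjusted p 0.000421). PCC1 was listed at 0 in emerging leaves of both lines and stood at 21.2 ± 5.49 in expanding Col-0 and 182 ± 42.2 in expanding gtl1-4. AT5G33370, among the largest falls above, was at 92.8 ± 1.48 in emerging Col-0 and 306 ± 26.8 in emerging gtl1-4, a call lost without 1 of the libraries, as was that of AT4G13210. No gene of the 43 lists was called.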

How the data were processed

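Deposited tables held, for 12 libraries of 1 leaf age each, a signal per gene that the authors had normalized; per the submitters' processing notes the reads passed through STAR and RSEM on build TAIR10, with bcl2fastq, Trim Galore, Trimmomatic and FastQC also named, and versions, annotation, strand use and normalization are not given in the sources used here. From the values, the deposited signal is an estimated count divided by 1 factor per library, with 96.5 to 97.9% of values whole multiples of a step within 0.002 counts, and depths are counts recovered from that step. RSEM divides reads among similar transcripts, so near-identical, overlapping and antisense genes are uncertain.

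Genes of both organelle genomes were removed (133 and 152 identifiers) and each column rescaled to 1000000. Groups came from the labels. Genes that reached a rescaled mean of 1 in either group were tested on log2(value + 1), a scale that understates changes of low genes, with limma 3.58.1 in R 4.3.3 (variance trend, Benjamini-Hochberg, adjusted p under 0.05), using the 6 libraries for leaf age and 12 for each interaction. TMM and median-of-ratios factors, filters, pseudocounts, weights, replicate block and left-out libraries were tried as alternatives. The test was tried on simulated data. Other steps used Python 3.11.15, pandas 2.3.3, numpy 2.4.6 and matplotlib 3.10.9.

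Promoters are the 250 bases before each gene start, read from the RefSeq TAIR10.1 genome and annotation. Named genes are GTL1, the 8 largest called differences each way at a mean of 20 or more, the 4 largest called of each of 43 lists, whole small families, and the 5 largest interactions each way; ARR8, RBCS1A and other genes outside this rule were chosen after their values were seen. Members and lists were chosen with earlier results of these data known.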

Additional observations from a re-analysis of the deposited data

Results flagged for a closer look

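The leaf age difference itself differed between water regimes or between genotypes for the genes given here, each by a limma interaction term with Benjamini-Hochberg adjustment. Values are differences of log2 differences, deficit minus well-watered.

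The genes with the largest such values at a mean of 5 or more in some group were AT5G15500 (4.45), RD29B (3.598), HSFA6A (3.49), DI21 (3.29) and DAA1 (3.16), more positive under deficit, and FSD1 (-4.26), BAM5 (-3.88), CRK41 (-3.29), LTP2 (-3.25) and ACS4 (-2.81), more negative. FSD1, for an iron superoxide dismutase, went from 65.8 ± 25.02 to 616 ± 73.5 with leaf age under deficit and from 4.03 ± 3.18 to 832 ± 98.1 when well-watered (SD, n = 3). BAM5, a beta-amylase gene, went from 21.6 ± 0.124 to 5.37 ± 3.64 under deficit and from 16.4 ± 8.76 to 60.5 ± 15.5 when well-watered, so its direction differed. Genes with a group listed at 0, such as AT5G15500, HSFA6A, DAA1 and RD29B, have fitted values that depend on the pseudocount.

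Among list genes, besides RD29B, the values above 0 were CER1 (1.04), SWA1 (1.05), 5MAT (1.54), LEA4-5 (2.64), AIH (1.56), GSTF12 (2.201), WSD1 (1.44) and DFR (2.97). Those below 0 were SEX1 (-0.74), PIN7 (-1.10), UGT74B1 (-0.98), GBSS1 (-1.04), ABCG12 (-0.59), HEMA1 (-0.74), SIG1 (-1.20), EXPA1 (-1.87), SOT18 (-1.43), EXPA15 (-1.64), XTH4 (-1.87), HIS1-3 (-2.02), EXPA8 (-2.23), DPE2 (-0.73), COR15B (-1.79), COR15A (-1.44), SOC1 (-1.01), CA1 (-0.85), LOX2 (-1.32), LBD38 (-1.72), PIP2;1 (-0.98), CYP83A1 (-1.69), BAM3 (-0.87), PIP1;5 (-1.81), XTH24 (-2.44), CYP83B1 (-1.58), AT4G33380 (-0.87), XTH7 (-1.55), MYB34 (-1.32) and XTH6 (-1.41). Of the 39 list genes called, 28 lost the call without 1 of the libraries.

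For genotype, Col-0 minus gtl1-4 under deficit, the values were AT2G20870 (2.77), AT4G13210 (2.22), AT5G33370 (1.46), MLP423 (-1.21), AT3G22235 (-2.54), AGL38 (-3.70), PCC1 (-3.04), CAD3 (-3.002) and CAD2 (-2.80). The fitted values of AT2G20870, AT5G33370 and PCC1 depend on the pseudocount, since a group is listed at 0, and AT4G13210 and AT5G33370 lost the call without 1 of the libraries (adjusted p up to 0.0603 and 0.139). With voom weights none of these 9 passed, against 1191 genes at an unadjusted p under 0.05 in the limma fit. AT3G22235, a stress tolerance protein gene, went from 0.185 ± 0.223 to 78.4 ± 6.48 in Col-0 and from 0.0751 ± 0.0908 to 423 ± 44.4 in gtl1-4.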

How the results depend on the processing

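Among 3222 pairings of a named gene of the leaf age comparison with an alternative setting, 3095 kept direction and call, 88 lost the call, 16 gained it and 23 reversed, and without 1 library 1244 of 1294 kept both. In every setting 147 of 216 such genes kept both, and 14 of 43 lists kept a count within 1.5 times. Interaction calls held less: of 624 such pairings for 48 water interaction genes 115 lost the call, as did 162 of 576 without 1 library, and 12 of the 48 genes kept the call in every setting. For genotype 17 of 117 and 11 of 108 were lost, and 0 of 9 genes kept it in every setting. For the leaf age comparison under deficit, higher genes numbered 5047 with median-of-ratios scaling and 773 with organelle genes in the totals, and lower genes 5263 with TMM, 5084 with median-of-ratios and 5261 with quantile scaling and 15141 with organelle genes in the totals. In well-watered leaves the last scaling gave 1209 higher and 14716 lower. The water interaction, 503 genes with 145 positive, gave 197 in all, 72 positive and 125 negative with organelle genes in the totals, 283 in all and 170 negative without a variance trend, 76 positive with voom weights, 883 in all, 275 positive and 608 negative in the fit of all 24 libraries. The genotype interaction, 9 genes with 3 positive, gave 17 in all, 6 positive and 11 negative with organelle genes in the totals, 15 in all, 5 positive and 10 negative with TMM scaling, 16 in all, 5 positive and 11 negative with median-of-ratios scaling, 5 positive with quantile normalization, 7 positive without a variance trend, 28 in all, 8 positive and 20 negative with array weights, 0 in all, 0 positive and 0 negative with voom weights, 26 in all, 11 positive and 15 negative in the fit of all 24 libraries, 1 positive with pseudocount 0.5, 32 in all, 14 positive and 18 negative with pseudocount 5. List counts below are of the direction with more calls. With organelle genes in the totals the counts were 0 for light-harvesting antenna, chlorophyll synthesis, primary wall cellulose, secondary wall, trihelix, SPL and flowering time and circadian clock, 1 for anthocyanin regulators, indole glucosinolates, senescence, type-A ARR and touch and rapid stress, 2 for carbon fixation, photorespiration, guard cell function, ABA signalling, polyamines and salicylic acid, 3 for nitrate assimilation and osmolytes, 4 for jasmonate, 5 for sucrose and starch and dehydration proteins, 11 for plastid gene expression and reference genes, 14 for auxin and 15 for wall loosening and trichome. With TMM scaling the counts were 0 for reference genes, 2 for secondary wall and 7 for primary wall cellulose and senescence. With median-of-ratios scaling the counts were 0 for reference genes, 2 for secondary wall and 7 for primary wall cellulose and senescence. With quantile normalization the counts were 0 for reference genes, 2 for secondary wall, 3 for CIN-type TCP, 5 for SPL and flowering time, 6 for light-harvesting antenna and 7 for primary wall cellulose and senescence. Without a filter on low values the counts were 0 for secondary wall, 3 for reference genes and 7 for ABA signalling. With a filter at a mean of 5 the counts were 4 for guard cell function. Without a variance trend the counts were 5 for polyamines and 7 for ABA signalling. With array weights the counts were 4 for secondary wall and 7 for primary wall cellulose. With voom weights the counts were 3 for reference genes. In the fit of the 12 Col-0 libraries the counts were 5 for primary wall cellulose. In the fit of all 24 libraries the counts were 5 for primary wall cellulose. With the replicate block the counts were 5 for primary wall cellulose. With emerging libraries thinned the counts were 0 for secondary wall. Without 1 library the counts ran from 7 to 17 for the genotype interaction, 1 to 5 for its positive genes, 6 to 13 for its negative genes, 181 to 649 for the water interaction, 50 to 194 for its positive genes, 131 to 479 for its negative genes, 7 to 13 for ABA signalling, 2 to 4 for anthocyanin regulators, 5 to 11 for jasmonate, 5 to 8 for polyamines, 2 to 7 for primary wall cellulose, 0 to 4 for reference genes, 0 to 6 for secondary wall and 1 to 4 for senescence. With organelle genes in the totals these genes turned from higher to lower: GTL1 (-0.78), GLK2 (-0.52), CESA2 (-0.53), COB (-0.78), CESA3 (-1.01), LAC4 (-0.19), GORK (-0.028), MYBL2 (-0.39), NLP1 (-0.99), SAMDC (-0.84), AT5G15950 (-0.98), ARGAH1 (-0.58), ARGAH2 (-0.46), PAO2 (-1.002), CYP79B2 (-0.45), UGT74B1 (-0.70), NAP (-0.39), PAO (-0.91), ARR9 (-0.10), PRR9 (-0.58), UBC9 (-0.62) and UBQ10 (-0.78). TCP10 stood at 0.0067 with median-of-ratios scaling. Beyond the scale itself, the cause of these changes was not tested.

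The replicate block gave 11817 genes for leaf age under deficit, 3368 higher and 8449 lower. Replicates of the same number in emerging and expanding leaves deviated together with correlations of 0.05, 0.07 and 0.07. For replicates of unlike number the correlations were -0.10 to 0.06. With 3 libraries per group, such small values cannot tell whether the numbers pair the libraries. Count models were planned for recovered reads and were not run, because 96.5 to 97.9% of the values and not nearly all came out as whole reads. Expanding libraries held the fewest nuclear counts, and thinning the emerging libraries to the lowest of them gave 11150 genes, 3176 higher and 7974 lower.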
